A study of Mus musculus with 2 samples.

Results

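The Tcf/Lef transcription factors are encoded by 4 mouse genes, Tcf7, Lef1, Tcf7l1 and Tcf7l2, and Tcf1 binding was examined here at these genes themselves. Members were the peaks of the deposited Tcf1 peak list whose summit lay in the body of 1 of the 4 genes or within 50 kb of either end. This gave 50 of the 22286 deposited peaks, of which 21 lay at Tcf7, 19 at Lef1, 6 at Tcf7l1 and 4 at Tcf7l2.

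Tcf1 was mapped by ChIP-seq, in which crosslinked chromatin fragments are recovered with an antibody and sequenced, in naïve CD8+ T cells sorted from mouse spleen as GFP+ TCRbeta+ CD62Lhi CD44lo-med CD8+. The list compared 1 WT library of 36938606 kept fragments with 1 Tcf1-deficient library of 27625250 kept fragments, precipitated with the same rabbit antiserum to full-length Tcf1. The mice were on the C57BL/6 background and 6 to 12 weeks old. Sources for the control differ. The sample title gives Tcf1-deficient cells, the genotype label gives Tcf1-/-Lef1-/-, the series design gives mice of both groups with hCD2-Cre and a Rosa26-lsl-GFP reporter and with Tcf1/Lef1 alleles that were wild-type or doubly floxed, and the study's methods give Cd4-Cre with Tcf7 fl/fl. Whether Lef1 was present in the control cells is therefore unsettled. hCD2-Cre acts mostly in mature T cells, and Cd4-Cre acts from the stage of thymocytes that carry CD4 and CD8. With 1 library per group no value could be checked against replicates, so intervals below cover counting error only, and no test of genotype was possible.

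Tcf/Lef proteins bind DNA through a high mobility group (HMG) box and recognize a short core, written here as ATCAAAG. They recruit beta-catenin when Wnt signals are on and Groucho/TLE corepressors when they are not. Tcf7 encodes Tcf1, the family member needed for early T cell development and for naïve and memory T cells, and Lef1 encodes a close relative that overlaps with it in T cells. Tcf7l1 encodes Tcf3, which represses Wnt targets in embryonic stem cells and skin, and Tcf7l2 encodes Tcf4, the main family member of intestinal epithelium. Genes of this family can be bound by their own products, and the comparison asked where Tcf1 sat at each of the 4 genes in mature CD8+ T cells.

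The family held 2 densely bound genes, Tcf7 and Lef1. Tcf7l2 had only 4 peaks, of which 2 were tall. Tcf7l1 had low peaks that lay nearer to other genes. A peak was counted as high-confidence when its fold enrichment over the control was 4 or more, with p below 1e-05 and q below 0.05. Of the 50 member peaks, 48 (96%) were high-confidence, against 85.4% of all deposited peaks. These were 19 peaks at Tcf7, 19 at Lef1, 6 at Tcf7l1 and 4 at Tcf7l2, and all 4 genes thus held at least 1, as did 66.5% of 22350 protein-coding genes. Fold enrichment reached 20 or more at 10 member peaks (20%), against 6.82% of all deposited peaks.

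The tallest peaks of Tcf7 lay upstream of the gene and at its promoter, and their sequences are shown first because they carry the core. Each sequence covers the 201 bp centred on the peak summit in mm9, plus strand, 5′ to 3′. Capitals mark ATCAAAG or 1 of 3 variants that share its last 5 bases, on either strand, so that a core on the minus strand reads CTTTGAT. The first variant is TTCAAAG. The second is TACAAAG. The third is AACAAAG. The variants differ in their first bases, so a given stretch of 7 letters can match only 1 of them.

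Tcf7 distal peak, 31.2 kb upstream, chr11:52127830-52128030: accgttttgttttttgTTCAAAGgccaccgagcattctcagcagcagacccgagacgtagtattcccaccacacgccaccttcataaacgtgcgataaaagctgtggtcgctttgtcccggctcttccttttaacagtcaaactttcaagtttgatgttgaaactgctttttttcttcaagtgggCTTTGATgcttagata
Tcf7 distal peak, 26.4 kb upstream, chr11:52123000-52123200: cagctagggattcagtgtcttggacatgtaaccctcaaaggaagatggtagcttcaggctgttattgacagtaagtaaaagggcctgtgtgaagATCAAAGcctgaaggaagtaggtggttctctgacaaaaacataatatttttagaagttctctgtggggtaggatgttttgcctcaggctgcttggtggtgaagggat
Tcf7 promoter peak, chr11:52096776-52096976: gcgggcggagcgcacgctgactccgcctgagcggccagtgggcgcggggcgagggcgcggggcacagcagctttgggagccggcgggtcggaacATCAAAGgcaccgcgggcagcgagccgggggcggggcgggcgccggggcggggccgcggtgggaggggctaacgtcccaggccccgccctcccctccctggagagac

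The distal peak 31.2 kb upstream of Tcf7 had a core 88 bp to 1 side of its summit and a TTCAAAG 81 bp to the other side, in opposite orientations, and no core at the summit itself. In the other 2 sequences ATCAAAG was centred 3 bp from the summit.

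Lef1 upstream peak, 4.36 kb from the 5′ end, chr3:130808930-130809130: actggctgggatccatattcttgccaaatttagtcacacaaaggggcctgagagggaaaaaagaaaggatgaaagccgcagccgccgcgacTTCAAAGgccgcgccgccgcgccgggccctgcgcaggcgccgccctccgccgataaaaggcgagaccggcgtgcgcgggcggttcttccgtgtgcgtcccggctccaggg
Lef1 intron 3 peak, chr3:130840101-130840301: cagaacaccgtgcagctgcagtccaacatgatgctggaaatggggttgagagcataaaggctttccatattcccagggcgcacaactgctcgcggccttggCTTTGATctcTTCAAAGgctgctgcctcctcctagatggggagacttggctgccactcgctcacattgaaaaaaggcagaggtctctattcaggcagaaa
Lef1 intron 5 peak, chr3:130893640-130893840: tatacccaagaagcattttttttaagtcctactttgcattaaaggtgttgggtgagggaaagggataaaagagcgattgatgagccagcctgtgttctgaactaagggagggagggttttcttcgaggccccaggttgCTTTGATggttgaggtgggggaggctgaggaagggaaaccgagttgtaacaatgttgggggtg
Lef1 intron 8 peak, chr3:130902876-130903076: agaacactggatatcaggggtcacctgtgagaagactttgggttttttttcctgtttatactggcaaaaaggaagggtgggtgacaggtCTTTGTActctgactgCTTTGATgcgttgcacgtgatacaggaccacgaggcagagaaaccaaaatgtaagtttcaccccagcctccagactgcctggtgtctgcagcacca

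At Lef1 the tallest peak held TTCAAAG but no ATCAAAG, whereas the other 3 peaks shown held ATCAAAG at 4, 41 and 8 bp from the summit, in that order. The intron 3 peak held ATCAAAG and TTCAAAG in opposite orientations with their centres 4 and 14 bp from the summit. The intron 8 peak held TACAAAG and ATCAAAG, each centred 8 bp from the summit, on either side of it.

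Tcf7l2 intron 4 peak, chr19:55867124-55867324: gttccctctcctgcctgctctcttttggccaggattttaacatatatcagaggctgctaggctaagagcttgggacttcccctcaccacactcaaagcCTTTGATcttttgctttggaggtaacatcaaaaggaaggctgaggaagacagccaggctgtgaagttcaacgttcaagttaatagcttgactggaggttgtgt
Tcf7l1 intron 4 peak, chr6:72584407-72584607: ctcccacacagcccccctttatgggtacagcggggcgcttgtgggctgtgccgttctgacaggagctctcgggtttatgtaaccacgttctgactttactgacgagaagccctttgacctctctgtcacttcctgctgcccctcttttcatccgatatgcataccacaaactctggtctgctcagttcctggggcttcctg

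The tallest peak of Tcf7l2 held 1 ATCAAAG, centred 1 bp from the summit. A Tcf7l1 peak is shown for contrast, 1 of the 2 that share the largest pileup of that gene, and held none of the 4 variants.

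At Tcf7 (ENSMUSG00000000782.8, chr11:52065873-52096681, minus strand, GENCODE vM1 on mm9) the peak heights were led by the distal upstream region. The height of a peak is its pileup, a count of the WT fragments that overlap the summit, and does not separate the share of cells bound from the number of fragments recovered per cell. The distal peak at chr11:52126992-52128354 had a pileup of 997 (Poisson 95% interval 936.1 to 1061), a width of 1363 bp and a fold enrichment of 142, which ranked 1 of all 22286 deposited peaks by fold enrichment and 35 by pileup. Its summit was intergenic, 31.2 kb upstream of the 5′ end of Tcf7, and no other coding start site was nearer. Apart from the promoter peak, 3 other upstream peaks had pileups of at least 90. These were 232 (203.1 to 263.9) at 26.4 kb, where the core was at the summit, 170 (145.4 to 197.6) at 35.5 kb and 90 (72.4 to 110.6) at 44.5 kb. For the outermost of these the nearest coding start was that of Vdac1, a mitochondrial channel gene, 33.2 kb away, and not that of Tcf7. They were 700, 723 and 708 bp wide, with fold enrichments of 36.3, 24.4 and 14.2. The remaining upstream peaks had pileups of 24, 68 and 28, of which the first, 27.8 kb upstream, had a fold enrichment of 3.90 and missed the minimum.

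The Tcf7 promoter held the widest member peak. It spanned 1790 bp (chr11:52096522-52098311), ranked 101 of all deposited peaks by width, and had its summit 0.195 kb upstream of the 5′ end with a pileup of 367 (330.4 to 406.5) and a core 3 bp from the summit. Its fold enrichment was 20.02, against 142 at the distal peak, with a lower pileup and a higher control level, 17.4 fragments against 6.02. The control level is the local number of control fragments after scaling, and a genome-wide minimum of 5.42 was used by the peak caller. This was the highest control level of the 50 member peaks. A second promoter peak of 590 bp, with a pileup of 36 (25.2 to 49.8) and a fold enrichment of 5.27, lay in exon 1 of transcript Tcf7-001, 0.003 kb from an internal start site of the gene. The promoter is also spanned by A630014C17Rik, a noncoding gene on the opposite strand.

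Inside Tcf7 the peaks were crowded and lower than the tallest ones upstream. Intron 2 of Tcf7-001, 20.5 kb long, held 9 of the 10 peaks of the gene body, with pileups from 21 to 71, and the peak of 21 had a fold enrichment of 3.43 and missed the minimum. Of these, 6 formed a run with the 2 promoter peaks in which neighbours were separated by at most 3 kb. The run was 12.2 kb long and 54.2% of it was covered by peaks. No peak was listed in the part of the gene past intron 2. Downstream, 3 peaks with pileups of 38, 54 and 27 were all nearer to the start site of Skp1a, a ubiquitin ligase subunit gene, than to Tcf7, and the peak of 54 lay 0.003 kb from that start. The peak of 38, 402 bp wide with a fold enrichment of 6.08, held ATCAAAG 13 bp from its summit together with a TTCAAAG and a TACAAAG.

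**Figure D1:**
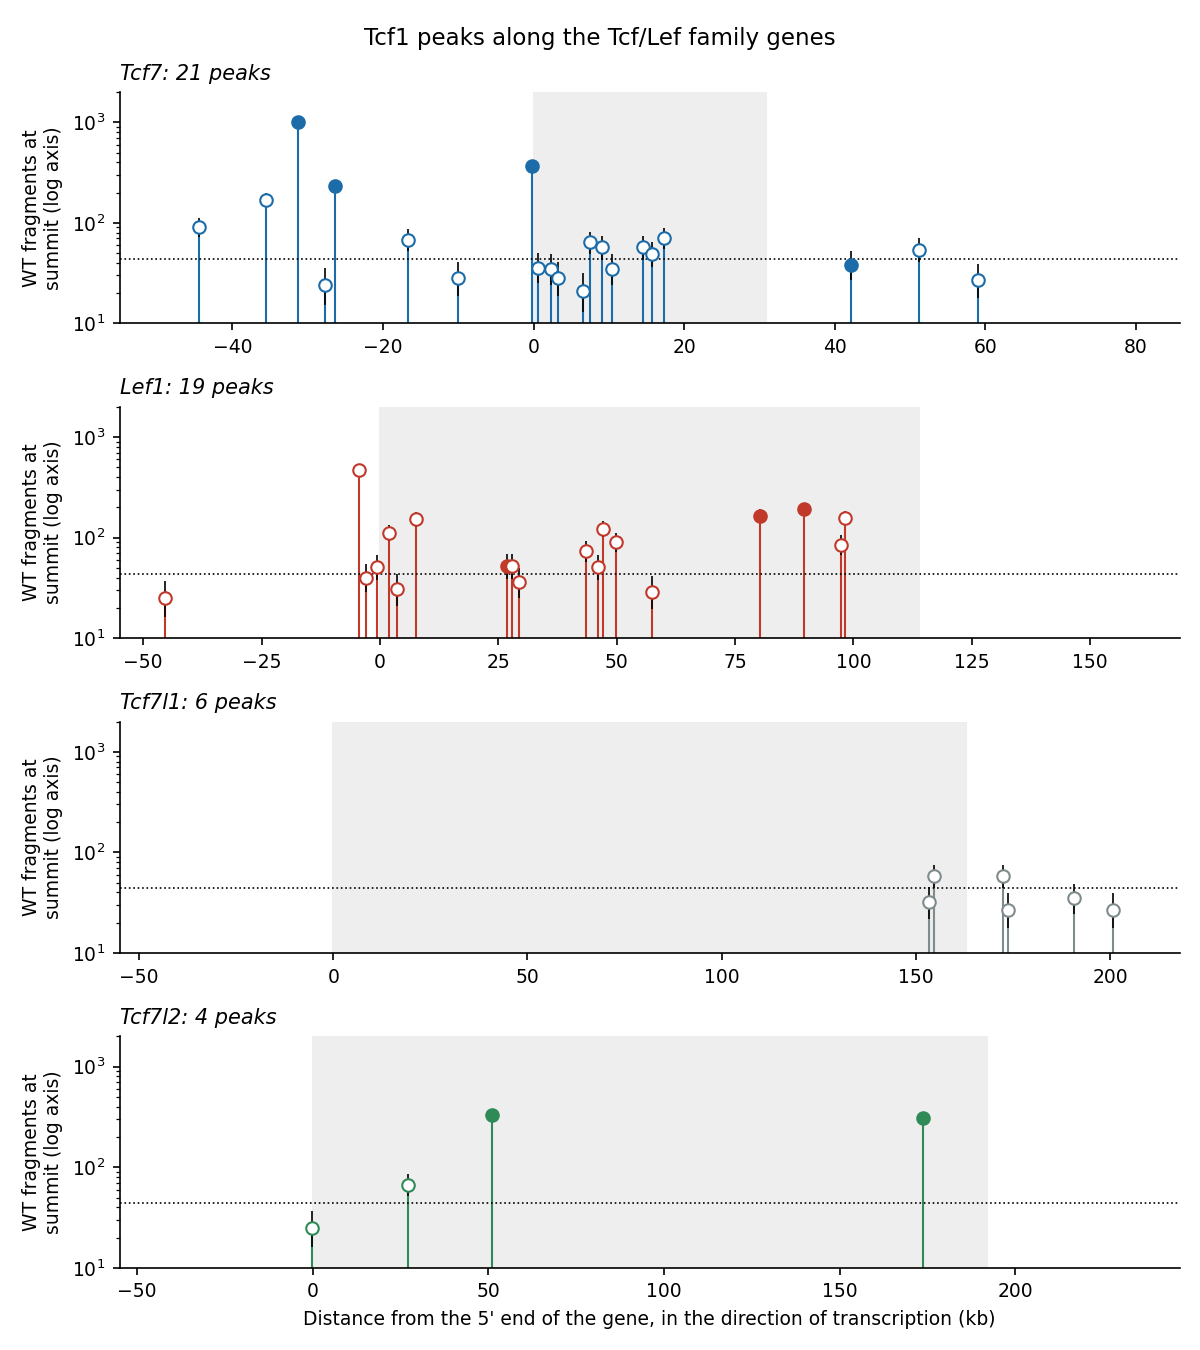
Height of every member peak along the 4 genes. The x axis is the distance from the 5′ end of the gene in kb, in the direction of transcription, and the y axis is the pileup at the summit in WT fragments on a log axis. Grey areas are gene bodies, filled points are peaks with ATCAAAG within 100 bp of the summit, black bars are Poisson 95% intervals and the dotted line is the median of all high-confidence peaks, 44. Tcf7 peaks stand tallest upstream, Lef1 peaks run from just upstream through the gene, Tcf7l1 has 6 low peaks at its 3′ side, and Tcf7l2 has 4 peaks of which 2 reach 334 and 312.

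At Lef1 (ENSMUSG00000027985.8, chr3:130813389-130927274, plus strand) as many high-confidence peaks were found as at Tcf7, but they were arranged differently. The tallest, at 4.36 kb upstream, had a pileup of 474 (432.3 to 518.7) and a fold enrichment of 36.4, with a control level of 12.03 fragments. The largest pileup at Tcf7 was 2.103 times as high (conditional binomial 95% interval of the ratio 1.884 to 2.351), so the difference exceeded counting error. It rests on the distal peak, since with a flank of 20 kb the largest pileups were 367 at Tcf7 and 474 at Lef1. Further upstream, only 1 low peak was listed within the 50 kb window, with a pileup of 25 at 45.3 kb, and past it 5 more upstream peaks lay 53.0 to 96 kb from the gene, the tallest with a pileup of 331.

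Around the Lef1 start sites the signal was modest in height. The peak 0.681 kb upstream of the 5′ end had a pileup of 51 (38.0 to 67.1), a width of 453 bp and a fold enrichment of 8.10. A wider peak of 1571 bp in intron 1 had a pileup of 112 (92.2 to 134.8) and a fold enrichment of 17.6, 0.508 kb before an internal start site of the gene. The larger of these was exceeded 3.28 times by the Tcf7 promoter peak (2.65 to 4.09), and neither held ATCAAAG. Together with the upstream peak of 474 and lower peaks of 40 and 31 they formed a run of 5 peaks over 8.52 kb.

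The introns of Lef1 held its remaining tall peaks. Among 15 peaks in the gene body, 6 had a pileup of 100 or more, as did 13.9% of all high-confidence peaks. In the Tcf7 body 0 of 10 did, a count near that background, and the 10 include the peak of 21 that was not high-confidence. Intron 3 of Lef1-001, 69.1 kb long, held 9 peaks with pileups from 29 to 152, the highest of them 7.53 kb from the 5′ end, 1014 bp wide and with a fold enrichment of 23.8. The intron 3 peak with the core, 26.8 kb from the 5′ end, had a pileup of 52 (38.8 to 68.2), a width of 467 bp and a fold enrichment of 8.26. The 3′ side of the gene held a peak of 165 (140.8 to 192.2) in intron 5 and a peak of 192 (165.8 to 221.2) in intron 8, both with the core, and a peak of 157 (133.4 to 183.6) in intron 11. Their widths were 621, 767 and 826 bp and their fold enrichments 25.9, 30.1 and 17.5. The intervals of these 3 peaks overlapped one another, so their order is within counting error. No peak was listed in the 50 kb downstream. For the last 3 peaks of the gene the nearest coding start was that of Hadh, a fatty acid oxidation enzyme gene, at 63.4 to 72.0 kb, although the peaks lay inside Lef1.

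At Tcf7l2 (ENSMUSG00000024985.11, chr19:55816300-56008144, plus strand) only 4 peaks were found in the longest window of the family, and 2 of them were among the 5 tallest member peaks. The peak in intron 4 of Tcf7l2-001, 50.9 kb into the gene, had a pileup of 334 (299.1 to 371.8) and a fold enrichment of 28.6. The peak in intron 8, 173.8 kb into the gene, had a pileup of 312 (278.3 to 348.6) and a fold enrichment of 48.8, the larger fold at the lower pileup because the control level was 10.7 at the first and at its minimum at the second. The 2 pileups could not be separated by counting error (ratio 1.07, 0.915 to 1.25), nor could 334 be separated from the 367 of the Tcf7 promoter (ratio 1.10, 0.945 to 1.28). The other peaks were an intron 4 peak of 67 (51.9 to 85.1) and a promoter peak of 25 (16.2 to 36.9) 0.173 kb upstream of the 5′ end, with fold enrichments of 10.6 and 4.05. In this order the widths of the 4 peaks were 744, 1174, 519 and 412 bp. The promoter peak was thus the lowest of this gene, in contrast to Tcf7. For all 4 peaks the nearest coding start was that of Tcf7l2.

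At Tcf7l1 (ENSMUSG00000055799.6, chr6:72576372-72739248, minus strand) no peak was listed in the 50 kb upstream, at the start site or in the first 153 kb of the gene. The 6 peaks, with pileups of 58, 58, 35, 32, 27 and 27, lay in intron 4 of Tcf7l1-001 near the 3′ end of the gene and in the 50 kb downstream. In this order, with the intron peak of 58 first, their widths were 434, 718, 355, 251, 336 and 286 bp. Both peaks of 58 had a fold enrichment of 9.19, and the others had 5.61, 5.14, 4.36 and 4.36. None had Tcf7l1 as the nearest coding start, and 5 of the 6 lay within 2 kb of the start of another coding gene. A pileup of 58 (44.0 to 74.98) was found 0.258 kb from the start of Tgoln1, a trans-Golgi network protein gene, and 35 (24.4 to 48.7) at 0.004 kb from that of Elmod3. The remaining pair near a start, 32 (21.9 to 45.2) and 58 (44.0 to 74.98), lay 0.273 and 1.74 kb from Gm15401, a gene on the opposite strand within Tcf7l1, and 27 lay 1.31 kb from Tgoln1. The largest Tcf7l1 pileup was exceeded 17.2 times at Tcf7 (13.2 to 22.8), 8.17 times at Lef1 (6.21 to 10.9) and 5.76 times at Tcf7l2 (4.35 to 7.75).

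**Figure D2:**
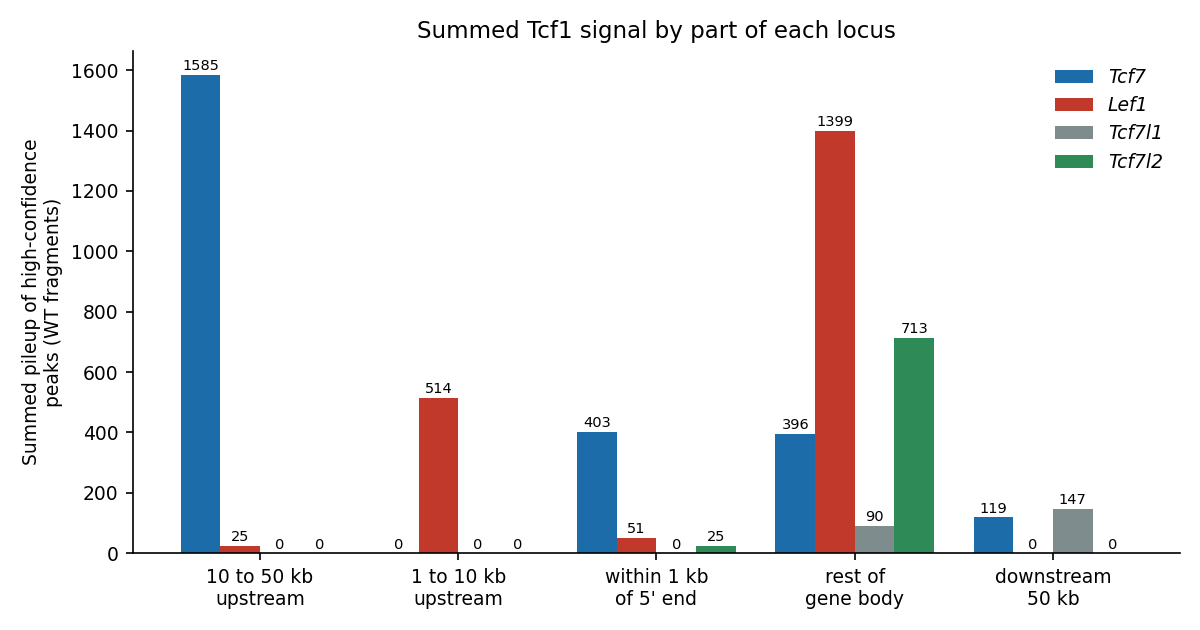
Summed pileup of the high-confidence peaks in 5 parts of each locus. Bars start at 0 and give the sum of WT fragments over the summits, and the number on each bar is its value. Tcf7 is highest 10 to 50 kb upstream (1585), Lef1 (1399) and Tcf7l2 (713) in the gene body, and the Tcf7l1 sums are 90 in the body and 147 downstream.

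The summed signal was placed differently at Tcf7 than at Lef1 and Tcf7l2, where most of it fell in the gene body. Of the summed pileup of 2503 at Tcf7, 1585 fell 10 to 50 kb upstream and 403 within 1 kb of the 5′ end. Of 1989 at Lef1, 1399 fell in the gene body past the first kb, and 514 fell 1 to 10 kb upstream, a region in which Tcf7 had no peak. Of 738 at Tcf7l2, 713 fell in the gene body past the first kb, and of 237 at Tcf7l1, 147 fell downstream. The single tallest peak made up 39.8% of the sum at Tcf7, 23.8% at Lef1, 45.3% at Tcf7l2 and 24.5% at Tcf7l1.

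The 4 windows differed in length, from 130.8 kb at Tcf7 to 291.8 kb at Tcf7l2, so peak numbers were also set per 100 kb. Tcf7 had 14.5 high-confidence peaks per 100 kb (Poisson 95% interval 8.75 to 22.7), Lef1 8.88 (5.35 to 13.9), Tcf7l1 2.28 (0.838 to 4.97) and Tcf7l2 1.37 (0.373 to 3.51). The intervals of Tcf7 and Lef1 overlapped each other, as did those of Tcf7l1 and Tcf7l2, but neither of the first pair overlapped either of the second. These intervals count peaks, not fragments, and treat peaks as independent, although peaks of a gene lay in runs. They are a description and no test between genes. Peaks covered 10.97% of the Tcf7 window, 6.26% of the Lef1 window, 0.905% of the Tcf7l1 window and 0.976% of the Tcf7l2 window. The order by height was another one. The median pileup of high-confidence peaks was 189.5 at Tcf7l2, 73 at Lef1, 57 at Tcf7 and 33.5 at Tcf7l1, against 44 over all high-confidence peaks. At Tcf7l2 no peak was near the median, which lay between pileups of 67 and 312.

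Against the windows of all 22350 protein-coding genes, which had a median of 1 high-confidence peak, the 2 T cell members stood near the top. Tcf7 and Lef1 shared rank 13 by number of peaks with 6 other genes. By summed pileup Tcf7 ranked 2, behind Gm20388, a gene model whose window held more peaks but none over 195, and Lef1 ranked 8. By the largest pileup Tcf7 ranked 10, a place it shares with Vdac1 because the distal peak lies within 50 kb of both genes, and it ranked 1 when 14 high-confidence peaks with a control level over 50 were left out, a setting added after the data were seen. Lef1 ranked 77, Tcf7l2 273 and Tcf7l1 8559 by the same measure. Tcf7l2 ranked only 3544 by number of peaks, yet its median pileup ranked 8 among 5256 coding genes with 4 or more peaks. Its 4 peaks are the fewest this ranking allows, and its median of 189.5 lies in a gap between pileups of 67 and 312. With a fold enrichment minimum of 8 the median was 312. Tcf7l1, with 6 peaks, was at the 90th percentile of coding genes by number, while its largest pileup of 58 placed it below the middle of the 14869 coding genes with a peak.

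**Figure D3:**
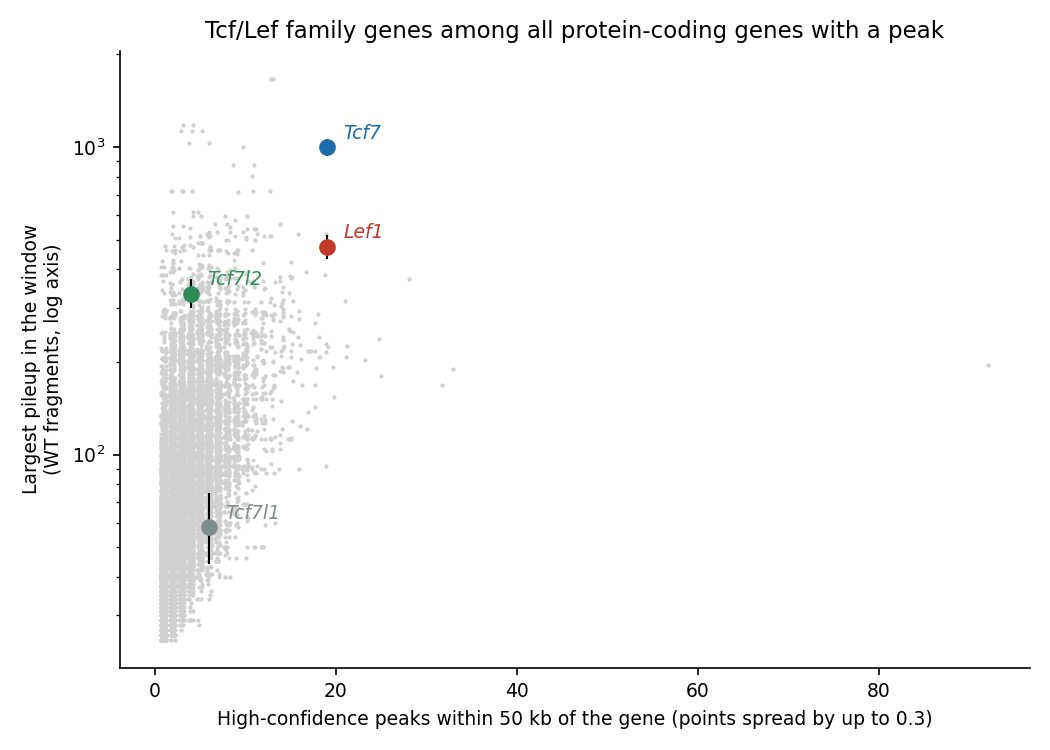
Number of high-confidence peaks (x axis, points spread sideways by up to 0.3) and largest pileup in WT fragments (y axis, log) in the window of each protein-coding gene with at least 1 such peak. Grey points are genes, coloured points are the 4 family genes and black bars are Poisson 95% intervals. Tcf7 (19 peaks, 997) and Lef1 (19 peaks, 474) lie at the upper right, Tcf7l2 (4 peaks, 334) lies high at the left and Tcf7l1 (6 peaks, 58) lies low among the other genes.

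Peak width differed less between Tcf7, Lef1 and Tcf7l2 than height did. The median width of high-confidence peaks was 633 bp at Tcf7, 621 bp at Lef1, 631.5 bp at Tcf7l2 and 345.5 bp at Tcf7l1, against 484 bp over all high-confidence peaks. Of the 48 high-confidence member peaks, 9 (18.8%) were at least 1000 bp wide, against 7.25% of all high-confidence peaks. Of the 9, 4 lay at Tcf7, 4 at Lef1 and 1 at Tcf7l2. Wide peaks were not always tall. The intron 3 peak of 1636 bp at Lef1 had a pileup of 73, and a peak of 1301 bp in intron 2 of Tcf7 had a pileup of 64. Conversely, the Lef1 peak with a pileup of 474 was 813 bp wide.

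**Figure D4:**
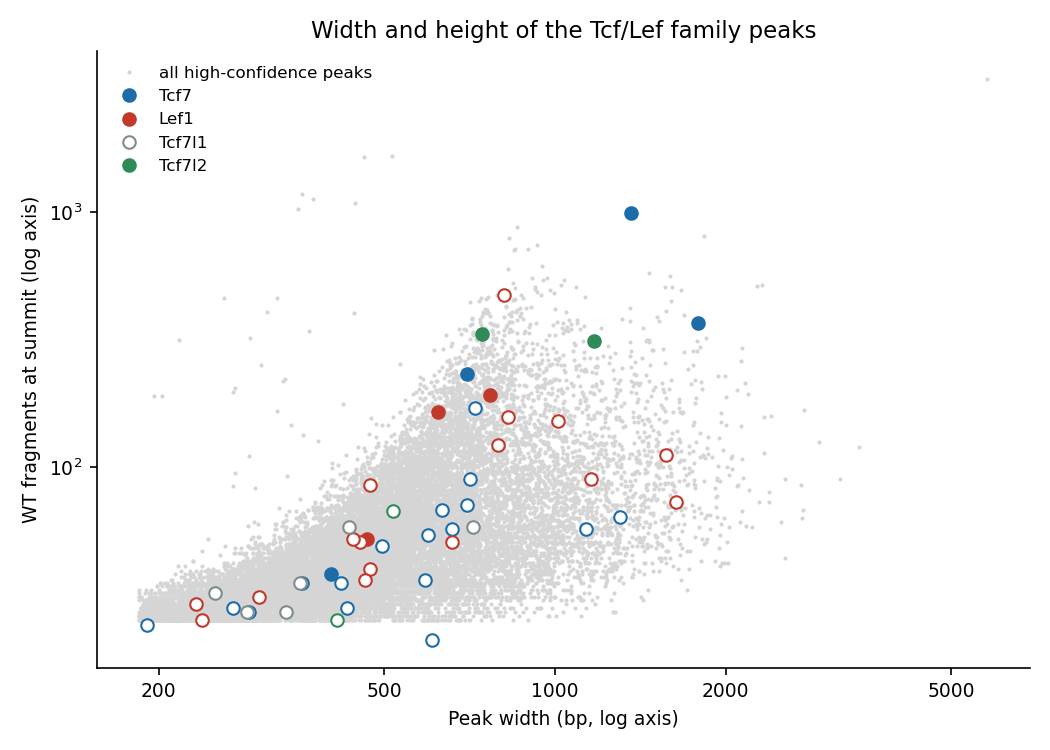
Width in bp (x axis, log) and pileup in WT fragments (y axis, log) of each member peak over all high-confidence peaks in grey. Filled points hold ATCAAAG within 100 bp of the summit. The Tcf7 distal peak (1363 bp, 997) and promoter peak (1790 bp, 367) lie at the upper right, and the 6 Tcf7l1 peaks are all at most 718 bp wide with pileups of 58 or less.

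The control library contributed little to most member peaks. The control level was at its minimum of 5.42 fragments at 39 of the 50 (78%), against 82.9% of all deposited peaks. It exceeded the minimum at 5 Tcf7 peaks, 5 Lef1 peaks and 1 Tcf7l2 peak, with a maximum of 17.4, and at no Tcf7l1 peak. Tall peaks were often among these, since 5 of the 11 member peaks with a pileup of 150 or more were at the minimum and the other 6 were above it. Of these 6, the Tcf7 peaks 31.2 and 35.5 kb upstream had a level of 6.02, little above the minimum. The rest had levels from 8.02 to 17.4. The source of the control fragments at those 6 peaks was not tested.

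The core was found within 100 bp of the summit in 9 of the 48 high-confidence member peaks (18.8%), of which 4 were at Tcf7, 3 at Lef1, 2 at Tcf7l2 and 0 at Tcf7l1. The share was 10.2% over 19038 high-confidence peaks on the numbered chromosomes and X, and 3.31% in windows of the same length 2 kb to either side. Cores went with tall peaks. Of the 11 member peaks with a pileup of 150 or more, 7 held the core, whereas 21.0% of the 1219 high-confidence peaks of that height did. The 4 without it were the Lef1 upstream peak, the Tcf7 peak 35.5 kb upstream, and the intron 3 and intron 11 peaks of Lef1 with pileups of 152 and 157. Counting any of the 4 variants, 20 of 48 member peaks (41.7%) had a match, against 28.3% of all high-confidence peaks and 16.9% of flanking windows. These were 9 peaks at Tcf7, 8 at Lef1, 2 at Tcf7l2 and 1 at Tcf7l1, where an AACAAAG was the match.

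The bases beside the core and its place in the peak were also read. All 9 cores in the member peaks followed a C or G and 8 of 9 were followed by a C or G, so that 8 of 9 had both. Over the 2056 cores in high-confidence peaks 46.1% had both, and over 1284 cores in flanking windows 25.8% did. The core lay within 20 bp of the summit in 7 of the 9 member peaks, against 54.1% of the 1939 high-confidence peaks with a core and 20.5% of flanking windows. The exceptions were the Lef1 intron 5 peak at 41 bp and the Tcf7 distal peak at 88 bp, the tallest of all. A match is a description of the letters and does not show that Tcf1 contacted them.

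**Figure D5:**
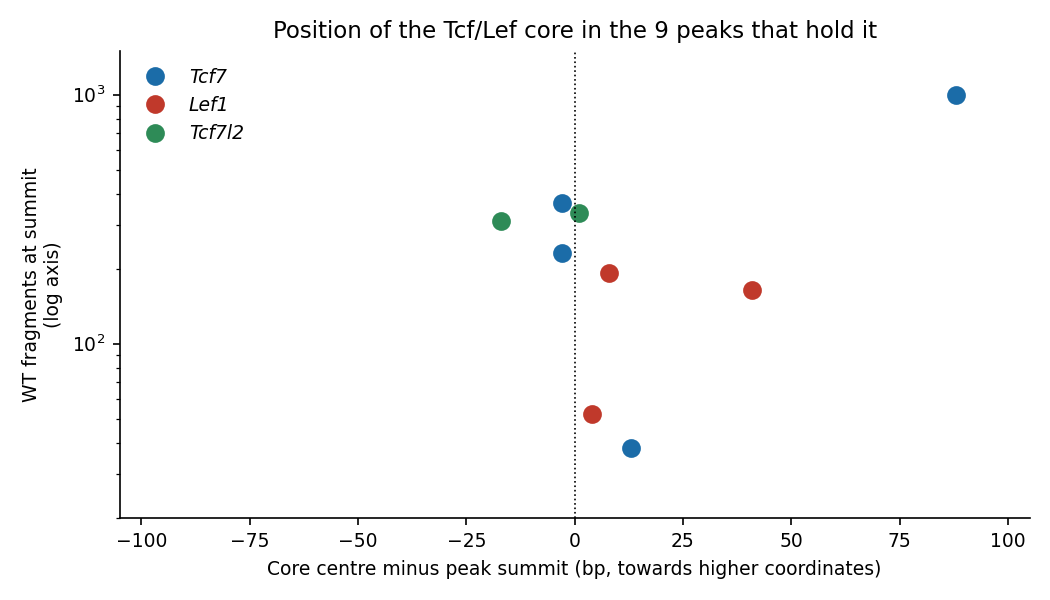
Position of ATCAAAG in the 9 member peaks that hold it. The x axis is the distance of the centre of the core from the peak summit in bp, towards higher coordinates, and the y axis is the pileup in WT fragments on a log axis. Each point is 1 peak. In 7 peaks the core is within 20 bp of the summit, and the peak of 997 fragments is the farthest, at 88 bp.

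Cores of other factor families active in T cells were also counted. A Runx core, TGTGGTT, was present in 7 of 48 high-confidence member peaks (14.6%), against 15.5% of all high-confidence peaks. The ETS core AGGAAGT was found in 9 of 48 (18.8%), against 16.4%, and CGGAAGT, a form common at GC-rich promoters, in 1 of 48 (2.08%), against 6.93%. Both strands were searched, and the ETS forms differ from each other in their first base only. The shares of AGGAAGT and TGTGGTT at the members were thus close to the background.

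Genes whose binding was laid out most like each member were found by the Euclidean distance of log2 summed pileup over the 5 parts of the locus, among 22334 coding genes with windows apart from those of the members. For Tcf7 these were Runx3 (distance 1.90), which encodes a CD8 lineage factor, Gimap1 (2.60) and Ube4a (2.97). Runx3 had 15 high-confidence peaks and a summed pileup of 1343, of which 424 lay 10 to 50 kb upstream and 423 within 1 kb of the 5′ end. For Lef1 they were Prkcb (2.90), Prdm10 (3.11) and Nr4a3 (3.30). Distances were shorter for the other 2 genes. The nearest were Fbxw8 (0.0493), Shb (0.193) and Gabrb1 (0.285) for Tcf7l1, and Atxn1 (0.345), Xylt1 (0.485) and Ptk2b (0.488) for Tcf7l2.

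Genes of partners and relatives of the family were described by the same window. Of 36 genes of Wnt/beta-catenin signalling and corepression, 35 held at least 1 high-confidence peak, all but Ctbp2, against 66.5% of all coding genes, with a median of 4.5 peaks, and 24 had one within 1 kb of a start, against 32.1% of 22342 coding genes. The leaders by summed pileup were Znrf3 (1312 from 9 peaks) and Rnf43 (1055 from 12 peaks), which encode ubiquitin ligases that remove Wnt receptors, and Axin2 (691 from 3 peaks), a Wnt target that encodes a scaffold for beta-catenin breakdown. None reached the sum of Tcf7 or Lef1. Of 18 Sox genes, which encode other HMG-box factors, 10 held a peak, close to the 66.5% of all coding genes, with the same median of 1, and the leader was Sox5 (595 from 12 peaks), followed by Sox15 (341) and Sox12 (130). As a check of the labelled cell type, all 8 CD8 T cell marker genes had a high-confidence promoter peak, led by Cd8b1 with a summed pileup of 1422, and 1 of 10 marker genes of other blood cells had one, Itgam, an integrin gene of myeloid cells.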

How the data were processed

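Naïve CD8+ T cells were profiled by Tcf1 ChIP-seq in 1 WT and 1 Tcf1-deficient library, and 1 peak list was used. The authors aligned reads to mm9 with Bowtie2 2.2.5 and called peaks with MACS2 2.1.1 in paired-end mode, WT as treatment, keeping 1 fragment per position (p limit 1e-05). Per the file headers, 36938606 WT and 27625250 control fragments were kept, a ratio of 1.34. The deposited signal (pileup) is the coverage of WT fragments at the summit, unscaled. The deposited fold enrichment is a ratio, pileup plus 1 over control level plus 1, from which the control level was computed back. The deposited −log10 p and −log10 q come from a Poisson test of the pileup against that level and compare the 2 libraries, not the genotypes. No replicates were pooled, and no test was run here.

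Windows, nearest starts and sequences came from GENCODE vM1 and the matching mm9 genome, read with Python 3.11.15, pandas 2.3.3, scipy 1.17.1 and pysam 0.24.0. Promoters were 1 kb on each side of a start, but the 5 parts of a locus were measured from the 5′ end of the gene only. The Lef1 peak of 112, 0.508 kb from an internal start, was thus summed with the gene body. The functions were tested on simulated data. Peaks were described with height, width and fold enrichment where their pileup was among the 5 largest of the gene, where they held ATCAAAG, or where they lay within 1 kb of a member start. Other genes were named where they held the nearest coding start, were among the 3 most alike or led their list, and Gm20388 was named after its value was seen. Members and gene lists were chosen with earlier results of these data known. Sox1 was not matched in the annotation. Sequences of 9 member peaks were printed, and those of the other members are not reported here.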

Additional observations from a re-analysis of the deposited data

Results flagged for a closer look

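A pair of tall peaks lay outside the 50 kb windows, so that, among the values for these genes, they entered only those for a flank of 100 kb, and both exceeded the 95th percentile of all high-confidence pileups, 166. The first had its summit 58.1 kb upstream of Tcf7 (chr11:52154359-52155215), with a pileup of 413 (374.1 to 454.8), a fold enrichment of 64.5 and a control level at the minimum of 5.42. The nearest coding start was that of Vdac1, 19.6 kb away, and it held AACAAAG but no ATCAAAG. It is the first peak past the 50 kb limit on that side, where the last one within the limit, at 44.5 kb, had a pileup of 90. The second lay 96 kb upstream of Lef1 (chr3:130716811-130717787), with a pileup of 331 (296.3 to 368.6), a fold enrichment of 51.7 and a control level at the same minimum. Its nearest coding start was that of Lef1, and it held TTCAAAG but no ATCAAAG. Just past the limit at Lef1, a lower peak with a pileup of 63 lay 53.0 kb upstream, against 25 for the outermost one within, at 45.3 kb. Which gene these peaks act on, if any, was not tested.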

How the results depend on the processing

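Of 80 alternative values for the 4 genes, 68 stayed within the limits set for a change (1.5 times for a count, the interval of the main value otherwise, which for a median is that of the order statistics of the peaks and is wide) and 12 did not, 4 at Tcf7, 2 at Lef1, 6 at Tcf7l1 and 0 at Tcf7l2. A fold enrichment minimum of 8 left 11 Tcf7 peaks (8.41 per 100 kb) and 2 Tcf7l1 peaks (0.761 per 100 kb). It also raised the median pileup over 1.5 times at Lef1 (73 to 112), Tcf7l1 (33.5 to 58) and Tcf7l2 (189.5 to 312), within those intervals, and from 57 to 71 at Tcf7. A flank of 20 kb leaves out the distal Tcf7 peaks by construction, so that the largest Tcf7 pileup was 367, under the 474 of Lef1. For Tcf7l1, a flank of 100 kb gave 10 peaks, the gene body with 50 kb upstream gave 2, and peaks nearest to its own start gave 0. With any of the 4 core variants 9 Tcf7 peaks, 8 Lef1 peaks and 1 Tcf7l1 peak held a match, and with the core anywhere in the peak 5 Lef1 peaks did. Tcf7 and Lef1 exceeded Tcf7l1 and Tcf7l2 in peak number under the 6 alternatives run for it. They also did so in peaks per 100 kb under the 5 run for that. Tcf7l2 had the largest median pileup under the 4 run for the median. Without a fold minimum and with flanks of 20 and 100 kb its 4 peaks were unchanged, so its median could not move. The interval of that median was the full range of the 4 peaks. The order of Tcf7l1 and Tcf7l2 by peak number turned with a minimum of 8 (2 against 3), with the upstream window (2 against 4) and with the nearest start (0 against 4), and the first 2 of these settings also turned their order per 100 kb. Without the 14 peaks of control level over 50, added after the data were seen, Tcf7 ranked 1 instead of 10 by largest pileup.

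No paired analysis was possible because each group had 1 library, and no library could be left out for the same reason. Depth limits the lowest peaks, since a pileup of 25 carries an interval of 16.2 to 36.9, and whether a low peak passes the minimum of 4 is within counting error.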
